A study of Homo sapiens with 6 samples.

Results

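Control BEAS-2B cells, human bronchial epithelial cells held as an immortalised line, were profiled by RNA-seq in 3 libraries, the control arm of a series of 6. They were chosen by their labels alone, as control replicates 1, 2 and 3. The other 3 libraries came from the same line treated with 15-KETE, an oxidised metabolite of arachidonic acid, and were not used here. The labels give BEAS-2B as the cell line and bronchial epithelial cells as the cell type for each library. They name no vehicle, medium, passage or culture for the controls. Whether they came from different cultures is not stated, so the spread between them may be technical.

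BEAS-2B cells were derived from normal bronchial epithelium and immortalised with a hybrid virus that carries SV40 T antigen, a protein known to bind the RB family. The line is used as a stand-in for airway epithelium, which in the lung is built from basal stem cells and from the club, goblet and ciliated cells that form from them. Each of those types is defined by a small set of genes for its keratins, secreted proteins or cilia. Cells of the airway lining also receive signals through growth factor, cytokine and lipid receptors, and they secrete chemokines, matrix and protease inhibitors.

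Levels are given as FPKM, the counts of a gene per kilobase of its exonic size, scaled to the total of its library. The exonic size is 1 value per gene, and the length of the transcripts present was not measured. Orders between genes therefore depend on that size. The gene EEF1A1 held 501795 counts over the 3 libraries and TMSB10 held 70627, but their means were 856 and 2567 FPKM. A gene is called on where it had at least 1 FPKM in all 3 control libraries, off where it was below 0.1 FPKM in all 3, and intermediate otherwise. Means are given with the SD over the 3 libraries, and 3 values in a row stand for replicates 1, 2 and 3 in that order. There was 1 group, so no p-value was computed.

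The libraries held 18215997, 21780953 and 16844781 counts, in 23979, 23024 and 25131 genes. Replicate 2 stood apart from the other two. Pearson's r of log2 FPKM over the 10560 genes that were on was 0.925 between replicates 1 and 2, 0.950 between 1 and 3, and 0.872 between 2 and 3, with genes as points that share their library. The middle count of replicate 2 fell in a gene with an exonic size of 4777 bases, against 5621 bases in replicate 1 and 6118 bases in replicate 3. Short genes read higher in replicate 2 and long genes lower, and this moves with many levels given here. Its part in those levels was not tested.

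Across the 61806 genes of the table, 10560 (17.1%) were on in the control cells. Among the 19838 protein-coding genes, 9646 (48.6%) were on and 6344 (32%) were off, of which 3774 had no count in any control library. At least 10 FPKM in every library was reached by 3293 protein-coding genes (16.6%), at least 100 FPKM by 201, and at least 1000 FPKM by 11. The median protein-coding gene had a mean of 1.37 FPKM. Of the 13014 lincRNA and antisense genes, 268 were on (2.06%), and of the 15153 pseudogenes, 430 (2.84%). Protein-coding genes took 97.5% ± 0.203 (SD, n = 3) of the counts. Without replicate 2, the number of genes on was 11507.

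**Figure D1:**
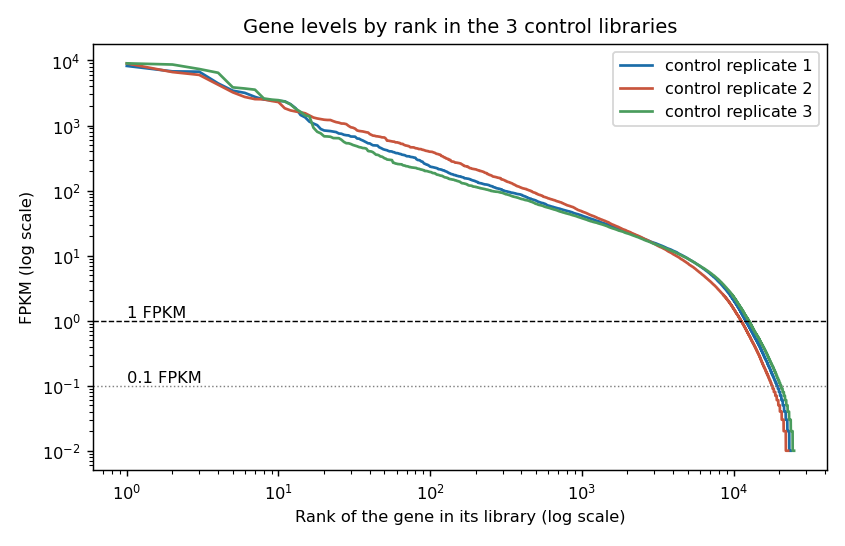
FPKM of each gene with a value above 0 (vertical axis, log scale) against its rank within its library (horizontal axis, log scale), 1 line per control library, with dashed and dotted lines at 1 and 0.1 FPKM. The curve of replicate 2 lies above the others among the abundant nuclear genes and crosses below them before 1 FPKM, which 12007, 11219 and 12616 genes reached in replicates 1, 2 and 3.

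Counts were spread over many genes. In replicates 1, 2 and 3, 1084, 730 and 1141 genes held 50% of the counts. The 10 genes with the largest shares held 5.24%, 5.47% and 5.74% of them. These 10 were the mitochondrially encoded MT-CO1, MT-ND4, MT-CO2, MT-CO3, MT-RNR2 and MT-ND2, the elongation factor EEF1A1, the actins ACTG1 and ACTB, and the glycolytic enzyme GAPDH.

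Mitochondrially encoded genes, which code for subunits of the respiratory chain and for the ribosomal and transfer RNAs of the organelle, held 4.69%, 3.85% and 5.71% of the counts. The mean was 4.75% ± 0.933 (SD, n = 3). All 13 of their protein-coding genes were above 1000 FPKM on average. MT-CO2, a subunit of cytochrome c oxidase, had the highest mean at 8242, 9007 and 8664 FPKM, and MT-ND6, a subunit of complex I, had the lowest mean at 839, 1257 and 1383 FPKM. MT-CO2 varied little between libraries, whereas MT-ND4L (2444, 551 and 3555 FPKM) and MT-ATP8 (2129, 585 and 2503 FPKM) were lowest by far in replicate 2. MT-ND4L shares a few bases with MT-ND4, and MT-ATP8 a larger stretch with MT-ATP6. The rule for counting reads in such overlaps is not stated, and its part in these values was not tested.

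Among nuclear protein-coding genes, thymosin beta 10 (TMSB10), which binds actin monomers, had the highest mean, with 1839.6, 4243 and 1619 FPKM. The ferritin light chain FTL followed with 2511, 3238 and 1427 FPKM. The order of these 2 genes differed between libraries, since FTL was higher in replicate 1 and TMSB10 in replicates 2 and 3. GAPDH (1334, 1542 and 927 FPKM) came next by mean, above SAA1 in replicates 1 and 3 and below it in replicate 2. SAA1 codes for serum amyloid A, an acute-phase protein that epithelia also make, and read 793, 2293 and 605 FPKM. The metallothionein MT2A, which binds zinc and other metals, read 754, 1707 and 519.7 FPKM.

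The cytoskeleton and its regulators filled further places among the 20 highest, with ACTG1 at 978 ± 302 FPKM, ACTB at 805 ± 317 and thymosin beta 4 (TMSB4X) at 739 ± 339 (mean ± SD, n = 3). The chaperones HSP90AB1, of the cytosol, and CALR, of the endoplasmic reticulum, had 758 ± 148 and 616 ± 76.7 FPKM, and the acidic nuclear protein PTMA had 728 ± 299. EEF1A1, which brings aminoacyl-tRNA to the ribosome, had 856 ± 235 FPKM over an exonic size of 10063 bases. The ribosomal protein genes RPS2, RPS12, RPL8, RPS3A, RPL41, RPL7A and RPS18 were also among the 20, with means from 720.1 to 1118 FPKM. All 20 were highest in replicate 2, which was the highest library for 34.9% of the genes that were on, against 30% for replicate 1 and 35% for replicate 3.

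**Figure D2:**
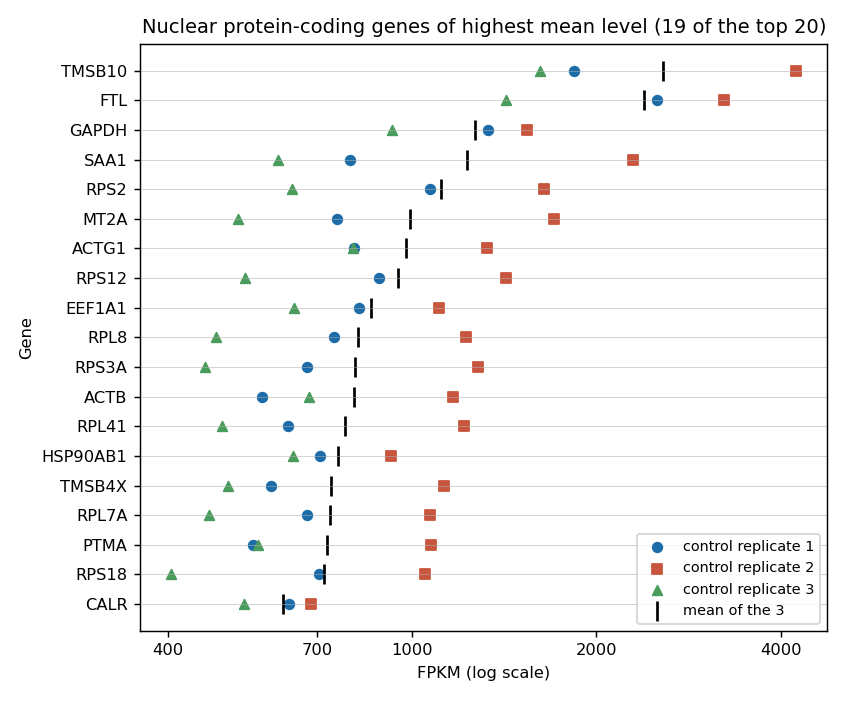
FPKM (horizontal axis, log scale) of 19 of the 20 nuclear protein-coding genes of highest mean level in control replicates 1 to 3, with the mean of the 3 as a vertical mark. The square of replicate 2 lies farthest to the right in every row, from 684 FPKM for CALR to 4243 FPKM for TMSB10.

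The 80 cytoplasmic ribosomal protein genes were all on, with means from 17.7 to 1118 FPKM and a median of 233.0 FPKM. They took 6.27%, 10.1% and 4.26% of the counts, or 6.87% ± 2.96 (SD, n = 3), and 5.27% over replicates 1 and 3 alone. Each of the 80 was highest in replicate 2. Many of them have processed pseudogenes of nearly the same sequence. Of the 10 noncoding genes of highest mean FPKM, RPS2P5, RPS28P7 and RPL10P9 were such copies, EEF1A1P5 was a copy of EEF1A1, and MTATP6P1 was a nuclear copy of MT-ATP6. RPS2P5 read 465, 658 and 259 FPKM. Reads may be split between these copies and their parent genes, so the values of both are uncertain. MT-RNR2, MT-RNR1, MT-TP, MIR1244-2 and GPX1, which GENCODE release 29 types as a polymorphic pseudogene although it codes for glutathione peroxidase, filled the other places.

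The sequences before 4 of these abundant genes are shown because they carry different kinds of promoter element. They come from RefSeq (GRCh38.p14), run 5′ to 3′, and hold 200 bases before the annotated start and the first 10 transcribed bases. Capitals in TMSB10 (chr2:84905456-84905665, plus strand) mark the GC box GGGCGG on either strand, in 5 places of which a pair share 1 base. Its tataag, a form close to TATAAA, was not searched and is left in lower case. Capitals in FTL (chr19:48965109-48965318, plus strand) mark CCAAT and GGGCGG on either strand, 2 of each. In MT2A (chr16:56608384-56608593, plus strand) they mark TGCNCNC, the core of the element through which metals act on metallothionein genes, in 6 places on either strand, and a TATAAA box, while 2 GC boxes and 1 AP-1 motif (TGANTCA) in the same stretch are left in lower case. In RPS12 (chr6:132814369-132814578, plus strand) they mark the C at the annotated start and the 4 pyrimidines after it, the form of a 5′ terminal oligopyrimidine tract, which is typical of ribosomal protein mRNAs. Metal response cores outside MT2A are not marked.
TMSB10: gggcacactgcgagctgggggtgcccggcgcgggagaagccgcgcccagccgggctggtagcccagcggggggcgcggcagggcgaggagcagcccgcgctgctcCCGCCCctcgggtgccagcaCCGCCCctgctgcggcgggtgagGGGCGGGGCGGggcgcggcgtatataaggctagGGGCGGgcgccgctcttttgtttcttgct
FTL: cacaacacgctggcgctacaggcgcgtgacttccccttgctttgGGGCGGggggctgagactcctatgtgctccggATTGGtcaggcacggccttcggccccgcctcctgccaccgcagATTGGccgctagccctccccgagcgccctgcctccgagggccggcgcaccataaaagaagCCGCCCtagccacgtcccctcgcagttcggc
MT2A: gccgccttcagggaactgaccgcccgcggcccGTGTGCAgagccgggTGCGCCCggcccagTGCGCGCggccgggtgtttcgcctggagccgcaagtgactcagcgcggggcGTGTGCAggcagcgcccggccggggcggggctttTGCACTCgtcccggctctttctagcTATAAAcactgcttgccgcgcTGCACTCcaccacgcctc
RPS12: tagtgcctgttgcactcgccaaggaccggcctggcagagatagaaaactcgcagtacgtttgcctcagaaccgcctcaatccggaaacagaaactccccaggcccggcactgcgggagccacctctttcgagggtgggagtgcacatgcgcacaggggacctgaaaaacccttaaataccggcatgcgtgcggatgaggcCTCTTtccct

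In the same 200 bases before the start, 5 or more GC boxes were found in 3.10% of 27305 RefSeq promoters, 2 or more in 21.8%, and 2 or more CCAAT in 8.27%. A TATAAA was found in 8.92%. The 6 metal response cores of MT2A were matched or exceeded in 26 of the 27305 promoters (0.0952%). Over windows of 300 bases, 250 before the start and 50 after it, a C and 4 pyrimidines at the start occurred in 4.04% of all promoters, in 5.70% of 7964 protein-coding genes that were on, in 30.1% of 163 of the 200 most abundant, and in 66.2% of 65 ribosomal protein genes. Without the ribosomal protein genes, the share among the most abundant was 14.8% of 115. TATAAA occurred in 11.1% of all promoters, 4.66% of the genes on and 13.5% of the 200 most abundant. The GC box occurred in 42.3%, 70.6% and 69.9%, and CCAAT in 33.0%, 36.4% and 44.8%, in the same order. All promoters means the full 27305, which include the genes on, whereas 15226 protein-coding genes were matched to a promoter. The full set may thus differ from the genes on in gene type as well as in level, and the part of each was not tested. The median ratio of observed to expected CpG was 0.556 over all promoters, 0.842 for genes on and 0.882 for the 200 most abundant. These are matches of letters, not measured binding, and these promoters were matched for 82.7% of the genes on, 81.5% of the 200 most abundant and 81.2% of the ribosomal protein genes.

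Long noncoding RNAs were lower. NORAD, which binds Pumilio proteins, led with 123, 65.8 and 112 FPKM, followed by the snoRNA hosts SNHG1 (45.1 ± 2.95 FPKM, mean ± SD, n = 3), SNHG29 (41.9 ± 10.3), GAS5 (38.8 ± 9.96) and SNHG6 (31.9 ± 10.4). NEAT1, the scaffold of paraspeckles and 22767 bases in exonic size, read 21.6, 25.8 and 79.1 FPKM. Its value in replicate 3 was over 3 times those of both other libraries, whereas SNHG1 was nearly level across the 3. These 6, with FGD5-AS1, OIP5-AS1, SNHG3 and SNHG19, were the 10 highest by mean.

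Markers of the airway cell types divided by class. Of 6 keratin genes outside the basal cell list, 5 were on, beside 48.6% of all protein-coding genes. Among them, KRT7, KRT8, KRT18 and KRT19 are keratins of simple epithelia, and the first 3 of these were on. KRT7 had 160.5, 442 and 171 FPKM, KRT18 86.5, 204 and 78.8 and its partner KRT8 49.4, 84.8 and 36.8. KRT81, a hair keratin, read 36.5, 115 and 33.5 FPKM and KRT80 15.2, 27.4 and 20.4. KRT19, which airway epithelium also makes, was intermediate at 0.45, 0.73 and 0.46 FPKM. The median mean over the 6 was 59.3 FPKM, against 1.37 for all protein-coding genes.

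Of 11 basal cell markers, 6 were on (54.5%), a share near the 48.6% of all protein-coding genes. S100A2 (11.6, 32.5 and 10.1 FPKM), the laminin-binding integrin subunits ITGB4 (18.9, 8.05 and 12.9) and ITGA6 (9.80, 6.24 and 12.7) and the keratin KRT17 (16.1, 12.8 and 5.61) were the highest. KRT5, the keratin that marks basal cells in the airway, was just above the limit at 1.37, 2.01 and 1.44 FPKM. The basal cell transcription factor TP63 was off, with 7 counts in all over the 3 libraries. KRT14 and KRT15 had no count, and a count of 3 over the 3 libraries would have been 0.0234 and 0.00884 FPKM.

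None of 8 club cell and 8 goblet cell markers was on, beside 48.6% of all protein-coding genes. Secretoglobin SCGB1A1, the main product of club cells, had no count, as did SCGB3A1, SCGB3A2, BPIFA1, BPIFB1, CYP2F1 and LYPD2, while the mucin MUC5B had 6 counts in all. The upper limit for SCGB1A1, taken as 3 counts over the 3 libraries, was 0.0904 FPKM. Of the goblet cell markers, the mucin MUC5AC read 0.01, 0.01 and 0.02 FPKM, AGR2 had the highest mean at 0.0367 FPKM, and SPDEF and FOXA3, transcription factors of goblet cells, were off. The stretch before SCGB3A1 (chr5:180591490-180591699, minus strand; RefSeq, GRCh38.p14) is shown as that of a gene with no count in these cells. It held none of the TATAAA, GC box, CCAAT, AP-1 and kB motifs searched on both strands, so it has no capitals. Its tataag, the form also present in TMSB10, was not searched, and its 2 metal response cores are left in lower case.
SCGB3A1: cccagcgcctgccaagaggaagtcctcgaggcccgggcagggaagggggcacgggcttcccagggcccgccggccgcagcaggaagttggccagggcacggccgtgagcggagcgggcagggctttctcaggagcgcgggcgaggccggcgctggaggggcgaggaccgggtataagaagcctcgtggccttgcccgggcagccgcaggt

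Of 10 ciliated cell markers, 1 was on, beside 48.6% of all protein-coding genes, and 2 were on without replicate 2 or at 0.5 FPKM. The 1 was CCNO (4.52, 2.99 and 3.69 FPKM), which acts in the making of centrioles in multiciliated cells, and MCIDAS, a regulator in the same cells, was intermediate with a mean of 1.22 FPKM. The ciliary transcription factor FOXJ1 had 2 counts in all, and TEKT1, TPPP3 and SNTN had none. No marker among 11 for ionocytes, tuft cells and neuroendocrine cells was on. CFTR, the chloride channel of ionocytes and secretory cells, had 1 count over the 3 libraries. Among 10 alveolar markers, LAMP3 (8.04, 7.90 and 11.9 FPKM) and AGER (2.43, 3.39 and 5.09 FPKM) were on, and the surfactant protein genes SFTPA1, SFTPA2, SFTPB and SFTPC were off. LAMP3 is a lysosomal protein also found in other cells, and AGER is the receptor for advanced glycation end products.

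Most markers of other tissues were not on, beside 48.6% of all protein-coding genes that were, but the lists differed in their summed levels. The fibroblast list summed to 52.5, 54.8 and 44.6 FPKM, beside 60.9, 65.3 and 44.5 FPKM for the basal cell list. The smooth muscle list summed to 1.46, 1.44 and 1.69 FPKM and the endothelial list to 1.38, 1.38 and 2.12 FPKM. Of 11 fibroblast markers, 3 were on, namely FBLN1 (28.5, 26.8 and 18.9 FPKM), THY1 (20.1, 25.1 and 20.9 FPKM) and COL1A1 (2.99, 2.48 and 3.68 FPKM). COL1A2, whose product joins that of COL1A1 in type I collagen, was off at 0.05, 0.03 and 0.07 FPKM, and COL3A1, LUM and POSTN had no count. No smooth muscle marker of 7 was on, and ACTA2 was the highest with a mean of 0.713 FPKM. Among 8 endothelial markers the growth factor receptor KDR was on at 1.16, 1.15 and 1.83 FPKM, and VWF had no count. Of 10 leukocyte markers, CD14 (3.53, 7.92 and 4.07 FPKM) and CD74 (2.04, 3.43 and 2.02 FPKM) were on. PTPRC, the leukocyte common antigen, had 4 counts in all, and CD3E and LYZ had none. The leukocyte markers summed to 6.57, 12.5 and 6.92 FPKM. These are bulk samples, in which a few cells with a high level and many cells with a low one cannot be told apart.

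**Figure D3:**
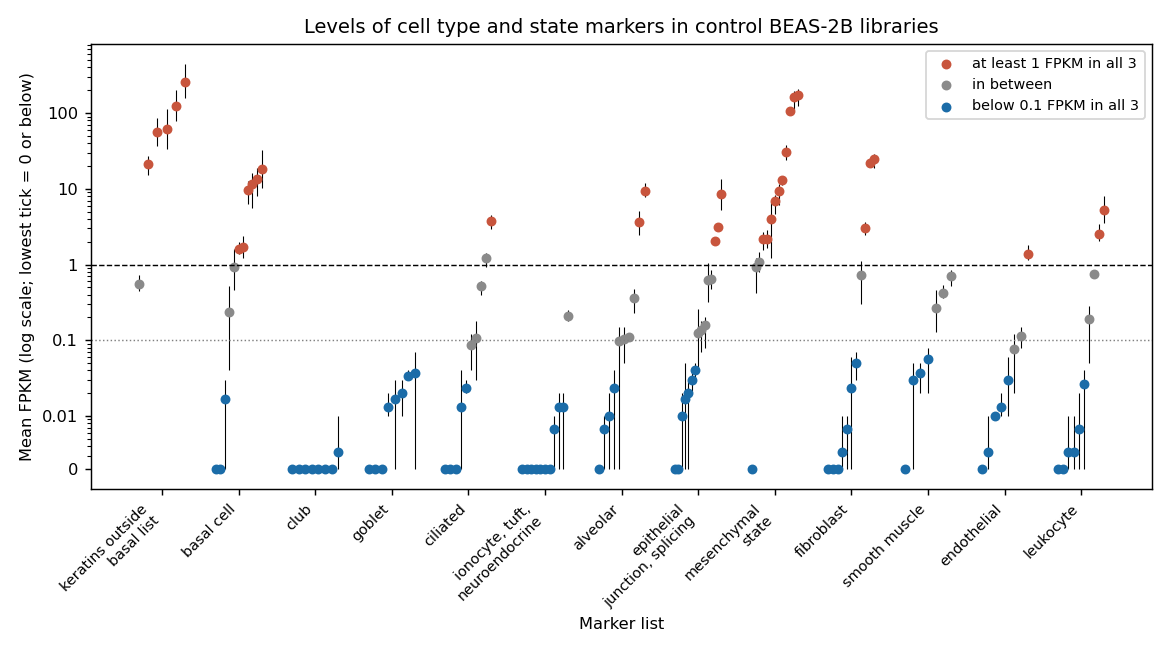
Mean FPKM over the 3 control libraries (vertical axis, log scale, with values of 0.002 or less drawn at the lowest tick) of each marker gene, grouped by list, with a line from the lowest to the highest library and colours for genes that were on, intermediate or off. Keratins outside the basal cell list and mesenchymal genes lie mostly above 1 FPKM (5 of 6 and 10 of 13), and all 16 club and goblet cell markers lie below 0.1 FPKM.

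The list of mesenchymal state genes summed higher than that of epithelial state genes in each library, at 549, 499 and 486 against 13.5, 21.2 and 12.2 FPKM. This contrast depends on the lists. The mesenchymal list holds the intermediate filament gene VIM. The epithelial list holds no keratins, which were listed apart and summed to 349, 874 and 341 FPKM. Of 15 epithelial junction, protease and splicing genes, 3 were on (20%), with a median mean of 0.127 FPKM. Of 13 mesenchymal genes, 10 were on (76.9%), with a median mean of 6.94 FPKM. Among all protein-coding genes, 48.6% were on. E-cadherin (CDH1) read 0.47, 0.64 and 0.84 FPKM and N-cadherin (CDH2) 11.1, 13.5 and 14.6 FPKM, so that the cadherin of mesenchymal cells was the higher in each library. EPCAM reached 1 FPKM in replicate 2 alone, with 0.32, 1.04 and 0.51 FPKM. The splicing regulator ESRP2 was on at 2.98, 3.25 and 3.21 FPKM and its relative ESRP1 was off at 0.03, 0.02 and 0.04 FPKM. CLDN7 had 1.92, 2.10 and 2.05 FPKM, while GRHL2 and OVOL2, transcription factors that maintain epithelial junction genes, had no count.

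Vimentin (VIM), the intermediate filament of mesenchymal cells, had 184, 207 and 124 FPKM. Fibronectin (FN1) read 179, 109 and 197 FPKM, and the matrix protein SPARC read 119, 107 and 95.97 FPKM. TGFBI, a matrix protein that TGF beta induces, had 30.7 ± 6.76 FPKM (mean ± SD, n = 3). Of the transcription factors of this state, TWIST1 had 11.6, 10.3 and 6.09 FPKM and TWIST2 8.19, 7.98 and 4.64, with ZEB1 at 3.96, 1.23 and 6.87, SNAI1 at 2.87, 2.02 and 1.64 and SNAI2 at 2.71, 2.18 and 1.56. ZEB1 was lowest in replicate 2 by over 3 times, whereas TWIST1 was lowest in replicate 3. ZEB2 and MMP2 were intermediate, and PRRX1 had no count.

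Set against the label of bronchial epithelium, the keratins KRT7, KRT8 and KRT18 were on, while basal cell markers were on at a share near that of all protein-coding genes and without TP63. SCGB1A1, MUC5AC and FOXJ1, which define differentiated airway cells, were off, and neither E-cadherin nor EPCAM reached 1 FPKM in every library.

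Transcription factors of the developing lung were partly present. Of 16, 4 were on (25%, beside 48.6% of all protein-coding genes). They were KLF5 (10.9, 9.73 and 10.2 FPKM), TBX3 (3.09, 2.34 and 3.28), FOXA1 (2.29, 2.62 and 1.99) and GATA6 (1.20, 1.91 and 1.08). SOX9, a factor of the distal lung bud, was intermediate at 0.99, 2.45 and 2.01 FPKM. NKX2-1, which specifies lung endoderm, had 1 count over the 3 libraries, and so did SOX2, a factor of the proximal airway. FOXF1 and TBX5, factors of lung mesenchyme, had no count. Over the 1295 genes that the deposited table annotates with transcription factor activity, 552 were on (42.6%) and 432 were off (33.4%), near the 48.6% and 32% of all protein-coding genes. The highest of these by mean were MYBL2 at 132 ± 25.6 FPKM and the hypoxia factor HIF1A at 108 ± 65.3 FPKM (mean ± SD, n = 3). HIF1A ranged from 43.1 FPKM in replicate 2 to 174 FPKM in replicate 3.

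The HOX genes, which record position along the body axis, were limited to 1 cluster. Of 39 genes, 4 were on (10.3%, beside 48.6% of all protein-coding genes), and all 4 lay in the HOXB cluster on chromosome 17. HOXB4 had 9.19, 12.2 and 9.61 FPKM, HOXB2 6.57, 9.33 and 5.73, HOXB3 3.17, 2.34 and 4.72 and HOXB7 3.47, 3.93 and 2.46. HOXB4 was above HOXB2, and HOXB2 above HOXB3, in each library, while HOXB3 and HOXB7 changed order in replicate 3. Between them lay HOXB5 and HOXB6, with means of 0.12 and 0.0833 FPKM. The whole HOXB cluster had 3950 counts, against 13 over the 11 HOXA genes on chromosome 7, 8 over the 9 HOXC genes on chromosome 12, and 0 over the 9 HOXD genes on chromosome 2. As the deposited table gives them, HOXB3 (chr17:48548870-48604912) spans the loci of HOXB4 and HOXB5 on the same strand, and HOXB7 (chr17:48607232-48633572) spans those of HOXB8 and HOXB9, so their reads may be divided in ways that the sources used here do not state.

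Of 33 receptor tyrosine kinases, 15 were on (45.5%) and 11 were off, shares near those of all protein-coding genes (48.6% on and 32% off), so the results here are the levels of single members. AXL, the receptor for GAS6, was the highest in each library at 63.1, 86.6 and 64.1 FPKM. The ephrin receptor EPHA2 came next in each library with 32.4, 35.8 and 29.2 FPKM. MET, the receptor of hepatocyte growth factor, had 18.6, 10.7 and 22.5 FPKM and EPHB4 15.4, 18.6 and 11.6 FPKM, and these 2 changed order between libraries. Of the EGF receptor family, EGFR read 8.49, 5.71 and 16.2 FPKM and ERBB2 9.26, 7.14 and 7.83 FPKM, ERBB3 was intermediate at 1.19, 0.55 and 1.21, and ERBB4 had no count. PDGFRA, KIT, RET, FGFR2 and the vascular receptors FLT1 and FLT4 were off.

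Cytokine receptors were on in 15 of 30 listed cases (50%), near the 48.6% of all protein-coding genes. In the deposited table's wider pathway of cytokines and their receptors, 82 of 329 genes were on (24.9%). IFNGR2, a subunit of the interferon gamma receptor, had 41.3, 41.6 and 27.4 FPKM, the oncostatin M receptor OSMR 39.7, 19.5 and 49.2 and the TNF receptor TNFRSF1A 27.3, 33.3 and 24.8. Their order differed between libraries. IL6ST, the signalling subunit that OSMR, LIFR and IL6R share, ranged from 8.67 FPKM in replicate 2 to 48.4 FPKM in replicate 3. IL13RA1 and IL4R, the chains that form the receptor for interleukins of type 2 inflammation, had means of 16.1 and 12.3 FPKM. CSF2RA, CSF2RB, IL2RG, IL13RA2 and CRLF2 had no count.

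Receptors for TGF beta and bone morphogenetic proteins were on in 9 of 11 cases (81.8%, beside 48.6% of all protein-coding genes). Their median mean was 5.24 FPKM. TGFBR2 was the highest in each library at 35.3, 59.95 and 66.9 FPKM, ahead of the coreceptor ENG (mean 10.3 FPKM) and the activin receptor ACVR1B (mean 8.66 FPKM). BMPR1B was off at 0.03, 0.03 and 0.09 FPKM.

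Innate sensors and their adaptors were on in 8 of 21 cases (38.1%, beside 48.6%). The adaptor MAVS had 22.4, 12.7 and 22.9 FPKM, the DNA sensor CGAS a mean of 10.3 FPKM and its effector STING1 a mean of 8.80 FPKM. Of the toll-like receptors, TLR2 (5.37, 2.98 and 6.46 FPKM) and TLR4 (2.18, 3.97 and 6.49 FPKM) were on, and TLR3, which senses double-stranded RNA, was intermediate at 1.29, 0.49 and 2.34 FPKM. TLR7, TLR8 and TLR10 had no count.

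G protein-coupled receptors were mostly off. Among the 680 genes that the deposited table annotates with that activity, 43 were on (6.32%) and 566 were off (83.2%). Of all protein-coding genes, 48.6% were on and 32% off. The annotation of these 680 genes is broad, since it also holds POLR2B, a subunit of RNA polymerase II. The olfactory transduction pathway alone had 419 of 478 genes off, and its overlap with the 680 was not counted. In the list of 26 receptors for lipid mediators, 8 were on (30.8%, beside 48.6%). This count was 13 at 0.5 FPKM and 3 at 2 FPKM. The lysophosphatidic acid receptor LPAR1 had 6.67, 8.06 and 8.91 FPKM, the leukotriene B4 receptor LTB4R 2.69, 2.35 and 6.17, the sphingosine phosphate receptor S1PR5 a mean of 3.42 FPKM and the prostaglandin F receptor PTGFR 3.33, 1.44 and 3.37. OXER1, a receptor for oxo-eicosanoids, had 1 count in all. The cysteinyl leukotriene receptors CYSLTR1 and CYSLTR2 had no count.

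Of 29 other receptors of this class known in the airway, 7 were on (24.1%, beside 48.6% of all protein-coding genes). ADORA2B, an adenosine receptor, had 7.89, 18.03 and 10.3 FPKM and the thrombin receptor F2R 9.80, 9.33 and 12.5 FPKM. F2RL1, which proteases activate, had a mean of 3.80 FPKM. The histamine receptor HRH1 read 4.38, 2.77 and 4.11 FPKM. The muscarinic receptor CHRM3 had 7 counts in all, and CHRM1 and CHRM2 had none.

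Nuclear receptors were on in 17 of 34 cases, again near the share of all protein-coding genes (50% beside 48.6%). The orphan receptor NR2F6 had the highest mean, with 20.7, 39.4 and 13.9 FPKM, followed by RXRB (mean 15.0 FPKM) and the clock component NR1D2 (mean 13.0 FPKM). The glucocorticoid receptor NR3C1 was on at 11.5, 5.94 and 14.5 FPKM. The estrogen receptor ESR1 had 1 count in all, and the progesterone receptor PGR had none.

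Among 11 genes for entry factors of respiratory viruses, 7 were on (63.6%, beside 48.6% of all protein-coding genes). Basigin (BSG) had 112, 132 and 80.7 FPKM, and the rhinovirus receptor ICAM1 83.4, 38.7 and 60.4 FPKM. TMPRSS2, a protease that primes viral spike proteins, had no count. Of 17 channels and transporters, 4 were on (23.5%, beside 48.6%). SCNN1A, the alpha subunit of the epithelial sodium channel, had 17.6, 24.7 and 21.9 FPKM, while the beta subunit SCNN1B had no count and the gamma subunit SCNN1G was off with a mean of 0.01 FPKM.

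Chemokines for neutrophils were among the higher secreted signals. Of 22 chemokines, 9 were on (40.9%, beside 48.6% of all protein-coding genes) and 10 were off. CXCL1 was the highest in each library at 29.5, 149 and 98.7 FPKM, and CXCL8 was the next at 24.5, 50.2 and 50.8 FPKM. CXCL5, CXCL2 and CXCL6 followed with 15.4 ± 3.27, 15.2 ± 7.89 and 11.97 ± 9.07 FPKM (mean ± SD, n = 3). All of these bind receptors of neutrophils. CCL2, which attracts monocytes, had 5.50, 7.97 and 8.22 FPKM. These 6 genes were lowest in replicate 1, which was the lowest library for 15.9% of the genes on, against 48.1% for replicate 2 and 36% for replicate 3. The interferon-induced chemokines CXCL9 and CXCL10 were off, and CXCL11 had no count.

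The stretches before the 2 leading chemokine genes are shown because both hold a kB motif, the kind of site that NF-kB binds. Sequences run 5′ to 3′ over 200 bases before the start and 10 after it (RefSeq, GRCh38.p14), for CXCL1 at chr4:73869193-73869402, plus strand, and for CXCL8 at chr4:73740369-73740578, plus strand. Capitals mark GGANTTTCC on either strand in both, and also TGANTCA and TATAAA in CXCL8. A GC box in CXCL1 is left in lower case. Over the 27305 promoters, GGANTTTCC was found in 322 of the stretches of 200 bases, TGANTCA in 1472 (5.39%) and TATAAA in 2435 (8.92%).
CXCL1: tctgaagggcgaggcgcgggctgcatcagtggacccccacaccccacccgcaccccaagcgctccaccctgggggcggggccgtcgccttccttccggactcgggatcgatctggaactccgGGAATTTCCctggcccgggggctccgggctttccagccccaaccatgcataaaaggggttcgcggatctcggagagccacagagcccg
CXCL8: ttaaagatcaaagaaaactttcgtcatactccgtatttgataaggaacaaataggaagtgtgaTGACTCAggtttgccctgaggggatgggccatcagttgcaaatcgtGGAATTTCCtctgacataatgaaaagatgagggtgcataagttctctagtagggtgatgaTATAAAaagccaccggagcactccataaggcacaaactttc

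Cytokines were on in 10 of 17 listed cases (58.8%, beside 48.6%). Over the 188 genes that the deposited table annotates with cytokine activity, 34 were on (18.1%), so the share depends on the list. The growth factor of neutrophils CSF3 had 9.10, 25.6 and 22.4 FPKM, CSF1 11.9, 21.6 and 17.1 and IL18 9.95, 23.9 and 13.1, with orders that changed between libraries. IL6 ranged from 3.02 FPKM in replicate 1 to 13.5 FPKM in replicate 3. TNF was intermediate at 0.07, 0.08 and 0.18 FPKM, and IL25 and IL33, alarmins of the airway epithelium, had no count.

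Growth factors were on in 20 of 41 listed cases (48.8%), which is the share of all protein-coding genes (48.6%) to within 1 gene. Over the 165 genes that the deposited table annotates with growth factor activity, 45 were on (27.3%), so this share too depends on the list. Among the 41, the matricellular proteins CCN1 (76.3, 158 and 119 FPKM) and CCN2 (54.7, 160.1 and 118 FPKM) had the highest means. The EGF receptor ligand AREG (72.2, 101 and 47.4 FPKM) and GAS6 (42.7, 66.8 and 47.96 FPKM) followed. Of the annotated genes outside the 41, HDGF had a mean of 169 FPKM and MANF 86.0 FPKM. CCN1 and CCN2 were lowest in replicate 1, and AREG in replicate 3. EGF, HGF, IGF1, FGF10 and BMP7 had no count.

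Matrix genes were on in 24 of 29 cases (82.8%, beside 48.6% of all protein-coding genes), with a median mean of 8.09 FPKM. After FN1 and SPARC, the next by mean was COL8A1, a chain of a short collagen, at 92.1, 103 and 119 FPKM, and the laminin chain LAMC1 at 47.7, 26.3 and 50.9 FPKM. The chains of basement membrane collagen COL4A2 and COL4A1 had means of 12.04 and 8.09 FPKM. COL17A1, a collagen of the hemidesmosomes of basal cells, was off.

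Proteases and their inhibitors were on in 16 of 25 cases (64%, beside 48.6%). The metalloprotease inhibitor TIMP1 had 106, 211 and 82.7 FPKM, the elastase inhibitor SLPI 64.3, 266 and 44.8 and the cysteine protease CTSB a mean of 64.8 FPKM. PI3, or elafin, another elastase inhibitor, read 42.8, 114 and 13.9 FPKM. SLPI and PI3 were both highest in replicate 2 and lowest in replicate 3. Of 17 genes of mucosal defence, 3 were on (17.6%, beside 48.6%). They were the calprotectin subunit S100A9 (38.03, 85.97 and 34.5 FPKM), the siderophore binder LCN2 (22.5, 15.8 and 6.06) and the mucin MUC1 (mean 1.75). DEFB1, CAMP, LTF, LYZ and NOS2 had no count.

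Ligands and receptors were set side by side in 24 pairs chosen from textbook knowledge, with earlier results of these data known. The ligand was on in 21 of the 24, beside 48.6% of all protein-coding genes. Counts of pairs therefore describe this choice of pairs alone. In 9 pairs both genes were on. These were AREG, EREG and HBEGF with EGFR, and also GAS6 with AXL, VEGFA with KDR, FGF2 with FGFR1, TGFB1 with TGFBR2, LIF with LIFR and IL6 with IL6R. GAS6 and AXL had means of 52.5 and 71.3 FPKM, and AREG and EGFR 73.5 and 10.1 FPKM.

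In 8 pairs the ligand was on and the receptor off. They were CXCL8 with CXCR1, CXCL1 with CXCR2, CCL2 with CCR2, CCL20 with CCR6, CSF1 with CSF1R, CSF2 with CSF2RA, CSF3 with CSF3R and PDGFC with PDGFRA. CXCR1, CCR2, CCR6 and CSF2RA had no count, CXCR2 had 1, PDGFRA 4, CSF1R 10 and CSF3R 11. Apart from PDGFRA, these receptors are known from blood cells. In 2 pairs the receptor was on and the ligand off, namely HGF with MET and OSM with OSMR, and neither ligand had a count. The rest had 1 gene at an intermediate level. A transcript level says nothing of the protein or of signalling.

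**Figure D4:**
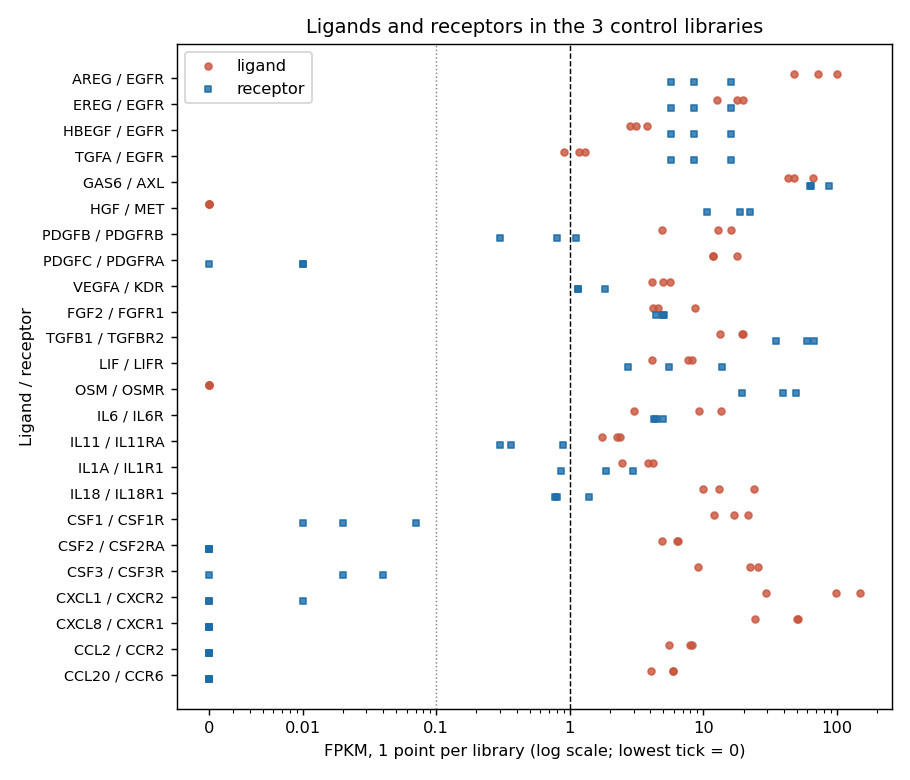
FPKM of ligands (circles) and receptors (squares) in each control library (horizontal axis, log scale, values of 0 drawn at the lowest tick) for 24 pairs, with dashed and dotted lines at 1 and 0.1 FPKM. The receptors of CSF1, CSF2, CSF3, CXCL1, CXCL8, CCL2, CCL20 and PDGFC lie below 0.1 FPKM, and HGF and OSM lie at 0.

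Enzymes of eicosanoid synthesis and breakdown were on in 6 of 21 cases (28.6%, beside 48.6% of all protein-coding genes). PTGES3, a prostaglandin E synthase that is also a cochaperone of HSP90, had 177, 276 and 173 FPKM, the prostaglandin reductase PTGR1 42.7, 87.1 and 47.4 and the leukotriene A4 hydrolase LTA4H 19.3, 24.1 and 19.4. Both cyclooxygenases were intermediate, PTGS1 at 0.27, 0.24 and 0.30 FPKM and PTGS2 at 0.12, 0.03 and 0.05 FPKM. ALOX15, the lipoxygenase that makes 15-HETE, had no count, with an upper limit of 0.0156 FPKM, and HPGD, the dehydrogenase that turns 15-HETE into 15-KETE, had 17 counts in all.

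Of 26 genes of xenobiotic metabolism, 10 were on (38.5%, beside 48.6%). The glutathione transferase GSTP1 had 138, 273 and 98.5 FPKM, the quinone reductase NQO1 41.9, 92.3 and 47.96 and the cytochrome CYP1B1 29.2, 36.1 and 51.8. The receptor AHR, which controls CYP1B1 and CYP1A1, was on at 3.60, 3.70 and 4.24 FPKM, and CYP1A1 was intermediate at 0.13, 0.11 and 0.25. CYP1A2, CYP2A13 and CYP2B6 had no count.

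Genes of proliferation and of cell cycle control were on in 21 of 22 cases (95.5%, beside 48.6% of all protein-coding genes). Their median mean was 16.6 FPKM. PCNA, the sliding clamp of DNA replication, was the highest in each library at 421, 696 and 296 FPKM. Topoisomerase TOP2A had 89.5, 36.04 and 191 FPKM and the kinase CDK4 a mean of 57.8 FPKM. RB1 read 16.6, 7.34 and 22.2 FPKM, and CDKN2A, the p16 locus, 41.6, 79.7 and 26.9 FPKM. E2F1, the transcription factor that RB restrains, had 58.9, 57.8 and 25.4 FPKM, and the telomerase gene TERT had 1.88, 1.64 and 2.95 FPKM. CCND1 was on at 16.6, 45.5 and 52.01 FPKM and CCND2 was intermediate. Of 11 oncofetal and germline genes, 4 were on (36.4%, beside 48.6%). They were HMGA1 (113, 122 and 72.3 FPKM), IGF2BP2 (30.7, 22.02 and 31.8 FPKM), IGF2BP3 and HMGA2.

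Over the deposited table's own pathway annotation, the median of 302 pathways with at least 30 protein-coding genes had 56.2% of its genes on. DNA replication stood at the top with 86.1% of 36 genes, and the pathways named olfactory transduction (7.74% of 478), asthma (3.12% of 32) and nicotine addiction (2.5% of 40) stood near the bottom.

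The spread between the 3 control libraries was wide. The median CV of the 10560 genes on was 27.5%, with the 10th and 90th percentiles at 10.5% and 52.9%. The highest library was at least 2-fold above the lowest in 3636 of them (34.4%). Replicate 2 was the lowest library in 2187 of the 3636 genes (60.1%), and replicate 3 the highest in 1742 (47.9%). Over the same 10560 genes, 544 (5.15%) differed 2-fold between replicates 1 and 3, 1823 (17.3%) between 1 and 2, and 3050 (28.9%) between 2 and 3. The common biological CV from edgeR was 0.371 with all 3 libraries and 0.261 without replicate 2.

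Gene length moved with these differences. Over the 9646 protein-coding genes on, Spearman's rho between exonic size and the log2 difference of a library from the other two was 0.26 in replicate 1, -0.58 in replicate 2 and 0.56 in replicate 3, across genes that share their libraries. In the shortest 10% of genes, of 207 to 2205 bases, the median log2 FPKM of replicate 2 was 0.75 above the mean of the other two, and in the longest 10%, of 11292 to 70573 bases, it was -0.87. Replicate 3 ran the other way, from -0.67 to 0.59, and replicate 1 lay between, from -0.15 to 0.24. With TMM scaling in place of library totals the values of replicate 2 were 0.99 and -0.64, so the direction at both ends held. The share of genes with a 2-fold difference was 53.2% in the shortest class of 10, 19.6% in the class of 3761 to 4513 bases and 53.9% in the longest.

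**Figure D5:**
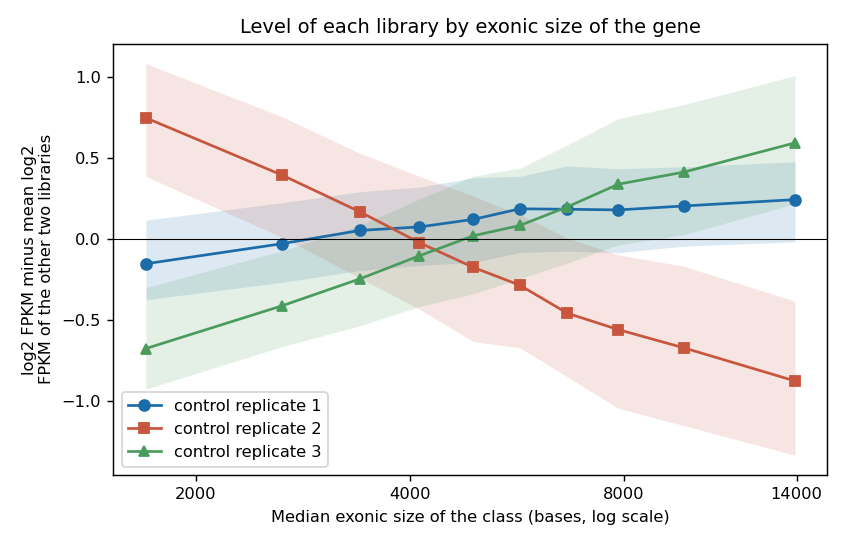
Median log2 difference of each control library from the mean of the other two (vertical axis) in 10 classes of protein-coding genes that were on, placed at the median exonic size of the class (horizontal axis, bases, log scale), with bands from the 25th to the 75th percentile of genes. Replicate 2 falls from 0.75 to -0.87 with gene length, and replicate 3 rises from -0.67 to 0.59.

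The genes with the widest spread, among protein-coding genes with a mean of at least 10 FPKM, were mostly long. CENPE, a kinesin of the kinetochore, read 3.87, 1.80 and 27.1 FPKM, and CENPF, another kinetochore protein, 12.3, 3.32 and 44.1 FPKM. The spindle protein ASPM read 6.56, 2.77 and 32.3 FPKM and the proliferation marker MKI67 55.2, 9.75 and 96.03 FPKM. TPR, KIF20B, FAT1 and GOLGA4 shared this order, with replicate 3 the highest and replicate 2 the lowest. These 8 genes had exonic sizes from 6871 to 16158 bases. The remaining genes of the 10 were short, namely PI3 with 551 bases and CXCL6 with 2040 bases, and both were highest in replicate 2. Most of the 10 were below 10 FPKM in their lowest library, because the limit was set on the mean. Ranking by the ratio of the highest to the lowest library, under such a limit, favours genes that are high in only some libraries. The part of this selection in the order that 8 of the genes shared was not tested.

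The genes of narrowest spread at the same level had CVs from 0.258% to 1.37%. They were the transcription factor ETS2 (21.5, 21.6 and 21.6 FPKM), the SNARE proteins VAMP3 (48.2, 47.9 and 47.5) and STX4 (10.1, 10.2 and 10.04), and also IFT46, TPGS2, RAP1GDS1, TMEM41B, PCNP, AMOTL2 and RAB29. Their exonic sizes ran from 2733 to 10569 bases. Ranking many genes over 3 libraries selects small CVs by its construction, so these values describe the libraries and not a fixed property of the genes.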

How the data were processed

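The 3 control libraries were taken from 1 table of 61806 Ensembl genes. Poly(A) RNA libraries were made with a SMARTer kit, per the labels' protocols. Tools listed in the submitters' processing notes, without their roles, include HISAT2 2.2.1, HTSeq 0.6.1 and cutadapt 1.9.1. Neither the genome build nor the strand setting is given in the sources used here, and overlapping or antisense genes may share reads. Per the file headers, the authors deposited raw counts, whole numbers per gene, and FPKM, of which 100% lay within 0.01 of the value recomputed from the count, exonic size and library total. FPKM holds library totals fixed, so a larger share of counts in some genes of a library goes with a smaller share in others. The part of this scaling in the differences by gene length was not tested. Library totals ran from 16844781 to 21780953 counts.

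The libraries were taken by label. The subject of the report, the 34 gene lists (614 genes) and the pairs were chosen with earlier results of these data known, so counts over them are descriptions. Named genes were the 20 nuclear protein-coding and 10 noncoding genes of highest mean FPKM, the highest and lowest mitochondrial genes, in each list the 3 highest and the defining markers, and the 10 genes of widest and of narrowest spread. Genes named beyond these were chosen after their values were seen. Some genes that this rule names are not reported here. Gene types came from GENCODE release 29 by gene ID (58254 matched). Biological CVs came from edgeR 4.0.16 with TMM scaling, filterByExpr and an intercept alone, in R 4.3.3, with DESeq2 1.42.0 as an alternative, and the code was tested on simulated data. Upper limits for 0 counts are 3 counts over the 3 libraries and, like all depth limits, cover counting error alone. No 2 libraries held identical values, and the chi-square per gene between their counts was 61.6 to 246, so each was kept as a library of its own. Motifs were searched on both strands in RefSeq promoters (GRCh38.p14) matched by symbol. For genes that were off, 70.4% matched, under the 80% needed, so that check is void.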

Additional observations from a re-analysis of the deposited data

How the results depend on the processing

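No paired analysis was possible because 1 group was described and no test was made. The number of genes on ran from 8767 at 2 FPKM to 13960 with at least 10 counts in every library, and from 10736 to 11507 with 1 replicate left out. The 10 leading genes held 15.9% of summed FPKM instead of 5.48% of counts, and 3.70% of counts without mitochondrially encoded genes. The mitochondrially encoded genes held 18.4% of summed FPKM. The median CV was 52.7% with no filter on low values, and 16.3% to 30.4% with 1 replicate left out, the lowest without replicate 2. The number of genes with a 2-fold difference was 1447 at a mean of at least 10 FPKM, 6976 at 1.5-fold and 1011 at 3-fold. It was 703 without replicate 2, 1836 without replicate 3 and 3084 without replicate 1, over the genes on in the libraries left. The biological CV ran from 0.261 to 0.45 with 1 replicate left out, the lowest without replicate 2. These counts fall in part because fewer libraries or genes enter. TMM and DESeq2 scaling gave 3612 and 3620 genes with a 2-fold difference. The median log2 difference of replicate 2 from the other two over the genes on was -0.14 by deposited FPKM and 0.10 by TMM, so statements on which library is highest are relative to such a shift. Of the 20 highest nuclear genes, 18 to 20 stayed in the list with TPM or with 1 replicate left out. Of 34 lists, 3 changed their count of genes on by over 1.5 times at 0.5 FPKM and 4 at 2 FPKM. Genes at a few counts cannot be told from 0 at this depth.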
